A study of Mus musculus with 10 samples.

Results

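SOX9 peaks that were listed in cells of the interfollicular epidermis (IFE), shared no base with a peak of either list from hair follicle stem cells (HFSCs), and lay within 1000 bp of the start or end of a gene locus numbered 1112. They made up 47.3% of the 2352 peaks of the IFE list that missed both HFSC lists, 21.3% of all 5209 IFE peaks, and are set here within 16379 peaks over the 3 lists. The members were chosen by the peak positions themselves, so these shares describe how the peaks were chosen and carry no test. The IFE list comes from 1 library, and each peak is given by its coordinates alone (build mm9), with no height or score.

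The study mapped SOX9 on chromatin by ChIP-seq (immunoprecipitated DNA that is then sequenced; antibody Millipore AB5535) in 1 IFE library and 2 HFSC libraries, and RNA in 4 HFSC libraries. Both cell types of the ChIP came from untreated CD-1 females, 52 to 60 days old, with telogen back skin as the source. IFE cells were sorted as integrin α6 high, CD34-negative and negative for a marker the labels write as ScaI, and HFSCs as integrin α6 high and CD34-positive. RNA came from HFSCs labelled Sox9 cKO (2 libraries) and from HFSC controls (2 libraries) of a mixed C57BL6 background, all sorted as YFP-positive and ScaI-negative. Every mouse of the RNA arm, controls included, received RU486 to switch on the Cre recombinase CrePGR: the males of day 75 on days 48 to 61 (cKO 1, control 1) and the females of day 80 on days 53 to 66 (cKO 2, control 2). The control libraries are titled Het, while their genotype field reads wild type. The promoter that drives CrePGR is not given in the labels, nor is whether mice were pooled for a library.

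SOX9 belongs to the HMG-box transcription factors and binds short AT-rich sequence in the minor groove of DNA. In skin it is known for specifying and keeping the stem cells of the hair follicle bulge, while the basal cells of the interfollicular epidermis are known to make little of it. A gene's promoter lies at its start, where ChIP-seq of many factors gives peaks over open, GC-rich DNA, and enhancers can lie far from any gene.

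RNA was measured in HFSCs only, so every expression value given for a gene beside an IFE peak is a value of another cell type. Sox9 itself was at 71.3 and 80.5 FPKM (fragments scaled by transcript length and by the mapped fragments of the library) in the libraries labelled cKO 1 and cKO 2, against 82.7 and 46.5 FPKM in control 1 and control 2. Its level was thus lower than the paired control in cKO 1 and higher in cKO 2, and the table does not show which exons were read, so its value in cKO 2 goes against the direction of that label. Below, cKO 1 and cKO 2 stand for the libraries so labelled. Cd34 encodes the surface marker of the HFSC sort in the ChIP arm, while the sort of the RNA arm is given by YFP and ScaI. Cd34 had 460 and 463 FPKM in the libraries labelled cKO, against 652 FPKM in control 1 and 680 FPKM in control 2. Summed FPKM over 22 basal epidermal genes lay between 22044 and 25804 in the libraries labelled cKO and between 21030 and 23361 in controls. For 9 melanocyte genes the sums were 47.9 in cKO 1 and 15.2 in cKO 2, against 43.2 in control 1 and 17.5 in control 2. Fibroblast and dermal papilla genes (11) summed to 205 in cKO 1 and 177 in cKO 2, against 317 in control 1 and 285 in control 2, and so were lower in both libraries labelled cKO. Epidermal differentiation genes (34) summed to 6629 in cKO 1 and 10946 in cKO 2, against 6652 in control 1 and 16170 in control 2. The part of these shifts in the RNA comparison was not tested. Endothelial and muscle genes summed to 61.7 in cKO 2 and to 4.41 or less in the other libraries, and Merkel cell genes to 21.9 in cKO 2 and to 0.799 or less in the others. In sorted bulk RNA, fewer cells of a type and less RNA per cell cannot be told apart.

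Where strand could be assigned, the peaks sat at gene starts and not at gene ends. Of 584 pairs of a peak and a gene that had a locus of its own and a strand in RefSeq, 545 (93.3%, exact 95% interval 91.0 to 95.2%) were at the start of the gene. For IFE peaks that an HFSC list shared, 649 of 693 such pairs (93.7%, 91.6 to 95.3%) were at the start. The intervals overlap almost whole. All intervals here are exact (Clopper-Pearson) and cover counting error only. Strand came from RefSeq (GRCm38.p6) by gene symbol, since the deposited loci give none, and 567 of the 814 gene rows with a locus of their own at an IFE-only edge were matched.

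Peak centres lay close to these starts and slightly inside the genes. The median centre was 70.0 bp downstream of the start for IFE-only peaks (quartiles at -60.5 and 213.0 bp) and 14.0 bp downstream for IFE peaks shared with HFSCs (quartiles at -116.5 and 146.0 bp). In the IFE-only class 345 of 545 centres (63.3%, 59.1 to 67.4%) were on the gene's side of its start, against 338 of 649 (52.1%, 48.2 to 56.0%) in the shared class. The distance of the centre did not separate the classes in the same way, since 69.2% of the IFE-only and 70.4% of the shared pairs had their centre within 250 bp of the start. The start base itself was covered by the peak in 372 of 545 IFE-only pairs (68.3%, 64.2 to 72.1%), against 515 of 649 shared pairs (79.4%, 76.0 to 82.4%). Shared peaks were also wider, and the part of width in these shares was not tested.

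**Figure D1:**
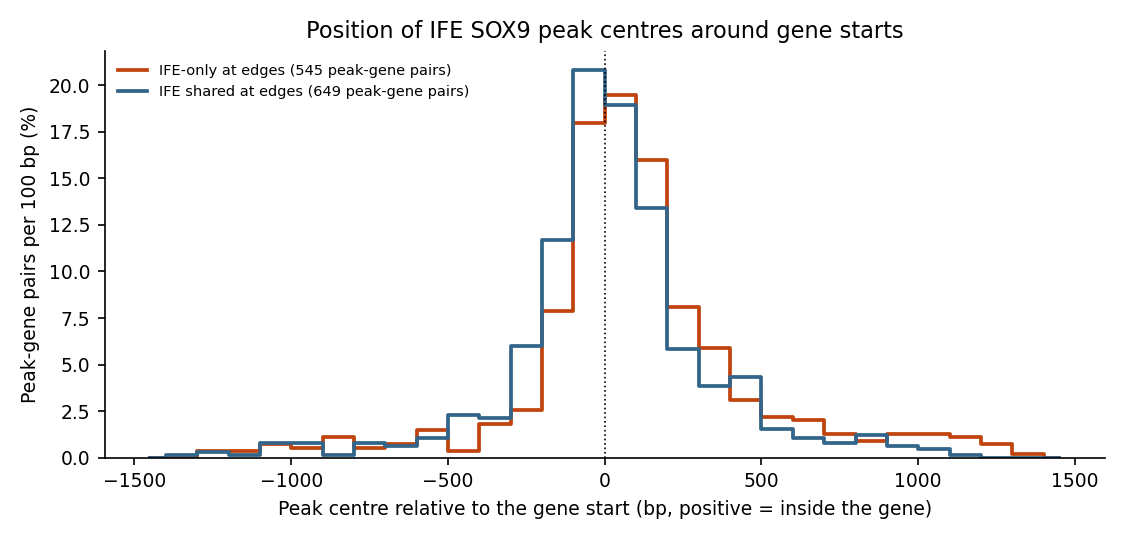
Distance from gene start to peak centre (bp, x axis; positive values lie inside the gene) against the share of peak-gene pairs in each 100 bp bin (percent, y axis), for IFE-only peaks at gene edges (545 pairs) and for IFE peaks shared with an HFSC list (649 pairs). Both lines peak beside the start, and the IFE-only line holds 106 of its pairs in the first 100 bp inside the gene and 98 in the 100 bp before it, while the shared line holds 123 and 135.

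IFE-only peaks at edges were narrower at the median than shared IFE peaks at edges, and wider than IFE-only peaks away from edges. Their median width was 506.0 bp (164 to 1481 bp), against 627.0 bp for shared IFE peaks at edges (223 to 6570 bp) and 453.0 bp for IFE-only peaks away from edges (143 to 1763 bp). Peaks of an HFSC list that missed the IFE list had medians of 570.0 bp (list 1) and 630.0 bp (list 2) at edges. Within the IFE list, the median edge peak was wider than the median peak elsewhere, with an HFSC partner (627.0 against 522.0 bp) and without one. Of the 1112 peaks, 508 reached the median width of all IFE peaks. The widest covered the start of Stk35, a serine/threonine kinase gene, at chr2:129626026-129627506 (1481 bp), with its nearest HFSC peak 166813 bp away. The narrowest, at chr16:4879187-4879350 (164 bp), lay 965 bp inside the higher edge of Fam100a, which also had a second peak of 589 bp.

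**Figure D2:**
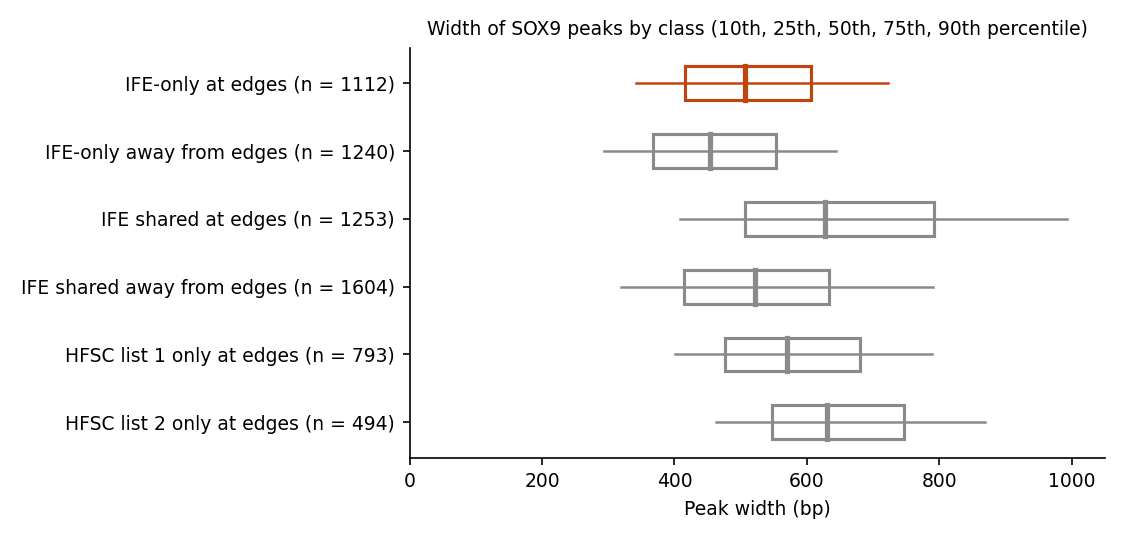
Width of SOX9 peaks (bp, x axis) in 6 classes (y axis, number of peaks in brackets): the thick line is the median, the box spans the quartiles and the thin line the 10th to 90th percentile. IFE-only peaks at edges (top, median 506.0 bp) lie between the IFE-only peaks away from edges (453.0 bp) and the shared IFE peaks at edges (627.0 bp).

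The edge share differed between lists. Of IFE-only peaks 47.3% (45.2 to 49.3%) were at an edge, against 43.9% (42.0 to 45.7%) of IFE peaks shared with HFSCs. Of the HFSC peaks that missed the IFE list, 13.6% of 5813 in list 1 and 39.0% of 1267 in list 2 were at an edge. The 2 HFSC libraries thus stand further apart from each other than either IFE class does from the other, and with 1 IFE library no share of the IFE list has an estimate of its spread between libraries. Per chromosome, the peaks numbered between 2.15 per 100 gene rows (chromosome 14) and 5.28 (chromosome 15) on the autosomes and 0.577 on the X, where the shared IFE edge peaks were also at 0.577.

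HFSC peaks were near in only a small part of the set. The nearest HFSC peak was within 100 bp for 14 of the 1112 peaks (1.26%), within 1000 bp for 67 (6.03%, 4.70 to 7.59%) and within 100000 bp for 743 (66.8%, 64.0 to 69.6%). IFE-only peaks away from edges had an HFSC peak within 1000 bp in 41 of 1240 cases (3.31%, 2.38 to 4.46%) and within 100000 bp in 860 (69.4%, 66.7 to 71.9%). Of the 814 genes with their own locus beside an IFE-only peak, 63 (7.74%) also had an HFSC peak within 1000 bp of an edge, against 8.26% of all 22844 genes with their own locus. The 2 sets differ in expression, since 691 of the 814 but 8329 of the 22844 had a mean of at least 1 FPKM. Of those 8329 genes, 1619 had an HFSC edge peak, a larger share than among the 814. The peaks were chosen to miss HFSC peaks, so the share among the 814 also describes that choice. At the 1000 bp limit of the choice, the last peaks inside were those of Tnks2 (990 bp), Bcl9 (984 bp) and Gm11792 (982 bp), and the first outside those near Smap1 and B3gat2 (1002 bp), Ssbp3 (1002 bp) and Ubr2 (1007 bp).

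Promoters under the peaks are shown for 6 genes taken in order of expression among genes of the fixed lists whose start the peak covered, and for Wfdc3, which was added after its values were seen because its RNA passed the test with the replicate block, though not without it. The letters are the 250 bases before the RefSeq start (GRCm38.p6), 5′ to 3′ on the gene's strand, and capitals mark matches, on either strand, to the 10 motifs searched. The SOX cores were searched as ACAATG and, for the second form, as ACAAAG. The GC box was GGGCGG, and the box named for its letters was CCAAT in the searched form. AP-1 was searched as TGACTCA, while the cAMP element was taken as TGACGTC. The E-box was CACGTG, and ETS sites were searched as CCGGAA. The NRF1 core was GCGCATG, and the TATA box was searched as TATAAA. Adjacent or overlapping matches run together. Dusp1 (phosphatase that switches off MAP kinases), Eif1 (translation start factor), Srsf3 (splicing factor), Eif4h (translation factor), Itgb1 (the integrin β1 of basal cell adhesion), Krtdap (a keratinocyte differentiation protein) and Wfdc3 (a WAP-domain protein) follow.
Dusp1: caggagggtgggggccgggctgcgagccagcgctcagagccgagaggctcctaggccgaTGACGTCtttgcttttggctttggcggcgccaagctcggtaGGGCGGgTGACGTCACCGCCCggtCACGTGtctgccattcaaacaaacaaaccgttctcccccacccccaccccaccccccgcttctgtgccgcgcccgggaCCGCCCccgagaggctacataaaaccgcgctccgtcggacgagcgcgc
Eif1: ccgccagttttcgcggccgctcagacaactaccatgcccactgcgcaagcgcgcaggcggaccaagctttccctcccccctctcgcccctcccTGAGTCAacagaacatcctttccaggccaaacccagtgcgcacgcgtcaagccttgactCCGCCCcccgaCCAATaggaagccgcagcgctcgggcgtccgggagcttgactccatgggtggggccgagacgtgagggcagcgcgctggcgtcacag
Srsf3: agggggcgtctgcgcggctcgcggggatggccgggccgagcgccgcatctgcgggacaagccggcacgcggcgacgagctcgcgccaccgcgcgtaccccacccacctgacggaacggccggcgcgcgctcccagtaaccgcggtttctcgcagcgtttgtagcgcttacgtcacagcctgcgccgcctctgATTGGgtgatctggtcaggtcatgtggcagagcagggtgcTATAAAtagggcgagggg
Eif4h: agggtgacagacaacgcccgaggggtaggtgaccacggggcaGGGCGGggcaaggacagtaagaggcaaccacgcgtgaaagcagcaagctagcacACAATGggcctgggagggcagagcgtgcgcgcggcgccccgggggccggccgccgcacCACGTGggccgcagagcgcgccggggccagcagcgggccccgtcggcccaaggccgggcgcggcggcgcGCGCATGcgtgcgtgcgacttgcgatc
Itgb1: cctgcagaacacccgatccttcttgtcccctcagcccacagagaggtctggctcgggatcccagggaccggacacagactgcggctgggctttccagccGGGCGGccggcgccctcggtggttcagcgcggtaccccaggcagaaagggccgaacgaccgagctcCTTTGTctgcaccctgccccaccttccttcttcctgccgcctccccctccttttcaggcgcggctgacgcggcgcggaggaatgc
Krtdap: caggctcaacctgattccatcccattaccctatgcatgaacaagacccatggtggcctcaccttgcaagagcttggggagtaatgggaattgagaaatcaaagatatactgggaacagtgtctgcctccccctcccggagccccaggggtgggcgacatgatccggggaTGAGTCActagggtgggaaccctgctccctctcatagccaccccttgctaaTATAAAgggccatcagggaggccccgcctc
Wfdc3: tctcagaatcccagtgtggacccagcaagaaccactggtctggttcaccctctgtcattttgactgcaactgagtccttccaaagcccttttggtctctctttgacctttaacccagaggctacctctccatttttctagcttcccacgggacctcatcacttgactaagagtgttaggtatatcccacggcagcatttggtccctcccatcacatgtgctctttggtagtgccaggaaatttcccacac

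The printed stretches differ in composition and in the letters matched. Dusp1 holds cAMP element letters in 2 places and GC boxes in 3, with 28 CpG dinucleotides in 250 bases. Its covering peak (chr17:26644707-26645523 in mm9) reaches only the last 59 of these bases. The cAMP element and E-box letters of Dusp1 lie before them, outside the peak. Eif4h carries the SOX core ACAATG once and has a GC content of 74.8%, and Itgb1 carries the SOX core ACAAAG once at 68.0% GC. Eif1 and Krtdap each hold the AP-1 letters once. No SOX core letters are in the Dusp1, Eif1, Srsf3, Krtdap and Wfdc3 stretches. Krtdap and Wfdc3 have 4 and 2 CpG dinucleotides, at 56.4% and 49.6% GC, and stand apart from the 5 others, which have 21 to 35. The promoter of Fzd7, also read after values were seen, is not printed. It holds the SOX core ACAAAG once and GC boxes in 5 places, at 65.2% GC, with all 250 bases under the peak.

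Over all promoters with a covered start, GC-rich letters were frequent and SOX core letters were not. The letters searched are those of the promoter and not those of the whole peak. They end 50 bases after the start, while the median IFE-only centre lay 70.0 bp inside the gene (545 start pairs). Parts of many peaks were thus not searched. Among 318 genes whose start was covered by an IFE-only peak, 41 promoters of 300 bases (250 before to 50 after the start) held either SOX core (12.9%, 9.41 to 17.1%). The share was 13.2% of 408 starts covered by a shared IFE peak, 21.6% of 2695 genes with no IFE or HFSC edge peak and a mean of at least 1 FPKM in HFSCs, and 29.4% of all 22862 promoters of the same length. GC boxes were in 79.2% of the IFE-only set (74.4 to 83.6%), 83.8% of the shared set, 61.6% of the expressed set without a peak and 35.2% of all. The median GC content was 66.7% in the IFE-only set, 67.3% in the shared set, 59.3% in the expressed set without a peak and 52.3% over all promoters, and the part of base composition in the motif shares was not tested. Medians of CpG dinucleotides followed the same order, with 27.0 in the IFE-only set, 29.0 in the shared set, 19.0 in the expressed set without a peak and 7 over all.

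Of the other motifs, cAMP element letters were in 10.4% of IFE-only promoters (7.25 to 14.3%), 7.35% of shared, 5.45% of expressed promoters without a peak and 3.28% of all. E-box letters were in 14.2% (10.5 to 18.5%), 9.07%, 10.9% and 7.12% of the same sets in the same order. AP-1 letters were in 2.20% of the IFE-only promoters, 2.94% of the shared, 3.86% of the expressed without a peak and 5.17% of all. ETS letters stood at 29.2% in both covered sets and at 29.1% in the expressed set without a peak. TATA letters were in 5.03% of the IFE-only promoters, 4.66% of the shared ones and 8.76% of the expressed ones without a peak. A match describes letters and not binding, and the RefSeq start may differ from the edge of the mm9 locus.

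Most genes beside the peaks were expressed in HFSCs. Among the 814 genes with their own locus, 691 (84.9%, 82.2 to 87.3%) had a mean of at least 1 FPKM over the 4 RNA libraries, against 88.8% (86.7 to 90.7%) of 1003 genes beside shared IFE peaks, 85.8% (84.1 to 87.3%) of 1888 beside HFSC peaks and 36.5% of all 22844. The median gene stood at 11.2 FPKM beside IFE-only peaks, 17.0 beside shared IFE peaks, 15.8 beside HFSC peaks and 0.0491 over all. Medians beside IFE-only peaks were 11.4 FPKM in cKO 1 and 9.25 FPKM in cKO 2, against 11.9 FPKM in control 1 and 9.25 FPKM in control 2, so the level followed the replicate number more than the genotype. Over all 1931 gene rows, including those that share a locus with a neighbour, 69.5% (67.4 to 71.6%) reached 1 FPKM.

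The share of genes with an IFE-only edge peak was highest from 10 to 30 FPKM, while the share with a shared edge peak was not lower above that range. Of genes listed at 0 in all 4 libraries, 0.248% had an IFE-only edge peak. The share was 8.78% from 3 to 10 FPKM and 10.1% (8.95 to 11.3%) from 10 to 30 FPKM. It was 8.39% (7.04 to 9.91%) from 30 to 100 FPKM and 6.60% (4.87 to 8.71%) at 100 FPKM or more. Shared edge peaks stood at 7.68%, 13.3%, 14.0% and 15.6% (13.0 to 18.6%) in these 4 ranges. By the rule of choice, a gene whose edge is covered by HFSC peaks can hold an IFE-only peak only beside them.

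**Figure D3:**
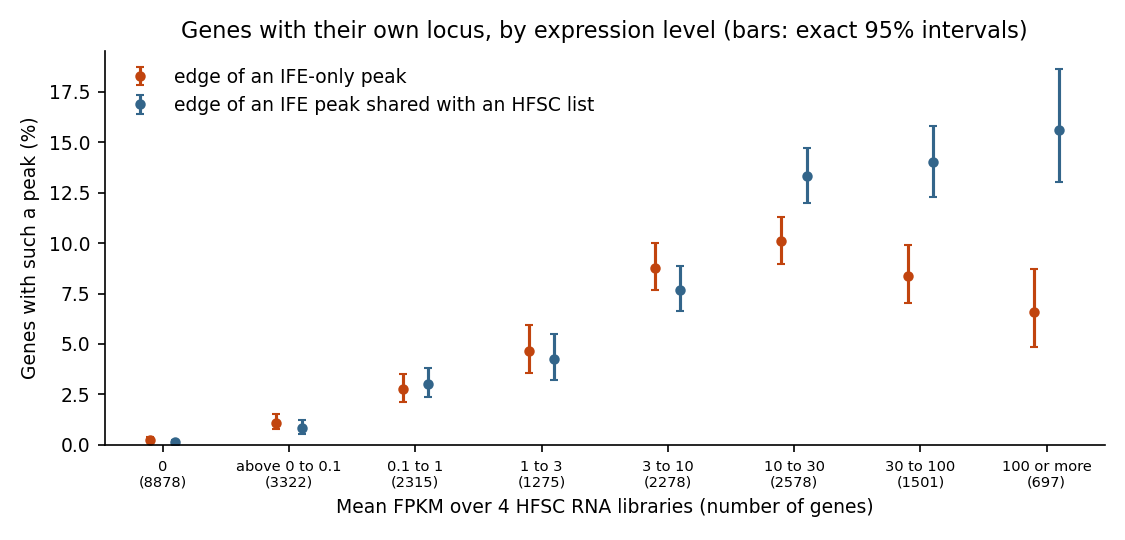
Share of genes with their own locus that had an edge peak (percent, y axis) by mean FPKM in the 4 HFSC RNA libraries (x axis, number of genes in brackets), for IFE-only peaks and for IFE peaks shared with an HFSC list; bars are exact 95% intervals. IFE-only points are highest at 10 to 30 FPKM (10.1%) and at 6.60% in the top range, where the shared points reach 15.6%.

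Early response genes, the AP-1 subunits and other factors that cells switch on quickly after a stimulus, were the list with the highest share. Of 28 such genes, 10 (35.7%) had an IFE-only peak at an edge, where 5.18% of all gene rows, 9.29% of rows with at least 1 FPKM and 7.31% of rows with at least 100 FPKM did. As many, 10, had a shared IFE edge peak, and 16 had an HFSC edge peak. The background for these 2 counts, and for such counts in the lists below, is higher than for IFE-only edges. Of rows with at least 1 FPKM, 11.4% were at a shared IFE edge and 21.0% at an HFSC edge (14.7% and 25.3% of rows with at least 100 FPKM). The 10 were Fos, Atf3, Egr1, Dusp1, Junb, Nr4a1, Ier2, Klf6, Fosl2 and Klf9, and 8 of them have a locus of their own. Of the list, 17 genes had a mean of at least 100 FPKM, and 7 of those 17 were among the 10.

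In 6 of the 10, no HFSC peak lay within 1000 bp of either edge. Dusp1 had 2 IFE-only peaks, one over the start and one 787 bp inside it (chr17:26643645-26644677), and its nearest HFSC peak was 27549 bp away. Nr4a1 (an orphan nuclear receptor) had a peak over its start at chr15:101097011-101097563, with the nearest HFSC peak 16688 bp away. Klf6 (a zinc finger factor) had a peak over its start at chr13:5860498-5860919, and the nearest HFSC peak was at 19244 bp. Ier2, Klf9 and Egr1 (a zinc finger factor of growth signalling) had HFSC peaks nearer, at 4434, 4103 and 1368 bp. In the other 4, an HFSC peak held the same gene at a different place. The IFE-only peak of Junb lay 275 bp inside its end and 362 bp from an HFSC peak, and that of Fosl2 154 bp inside its start and 412 bp from one. Fos had an IFE-only peak over its end and one 880 bp inside its start, and this second one was 677 bp from an HFSC peak. Atf3 had one 743 bp beyond its end, 837 bp from an HFSC peak.

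These genes were abundant in HFSCs, and 7 of the 10 had a mean of at least 100 FPKM. Fos was at 4197 FPKM in cKO 1 and 1346 FPKM in cKO 2, against 2950 FPKM in control 1 and 1438 FPKM in control 2. Dusp1 was at 1513 FPKM in cKO 1 and 596 FPKM in cKO 2, against 1041 FPKM in control 1 and 555 FPKM in control 2. The groups overlap for both genes, and replicate 1 is the higher library on either side. Nr4a1 had 886 FPKM in cKO 1 and 269 FPKM in cKO 2, against 528 FPKM in control 1 and 279 FPKM in control 2. For Egr1 the values were 1593 FPKM in cKO 1 and 484 FPKM in cKO 2, against 1187 FPKM in control 1 and 514 FPKM in control 2. Junb was at 753 FPKM in cKO 1 and 600 FPKM in cKO 2, against 448 FPKM in control 1 and 716 FPKM in control 2, with overlap. Klf6 was at 146 FPKM in cKO 1 and 58.5 FPKM in cKO 2, against 84.6 FPKM in control 1 and 62.8 FPKM in control 2. In 9 of the 10 genes the male pair was higher in cKO 1 than in its control, and in 2 of the 10 the female pair was higher in cKO 2. The 18 genes of the list with no IFE-only edge peak showed this too, with 17 higher in cKO 1 and 6 higher in cKO 2 than in the paired control. Over all 14455 tested rows 44.9% were higher in cKO 1 and 53.6% in cKO 2. Adjusted p with the replicate block (limma) was 0.735 for Fos, 0.635 for Atf3, 0.758 for Egr1 and 0.489 for Dusp1.

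**Figure D4:**
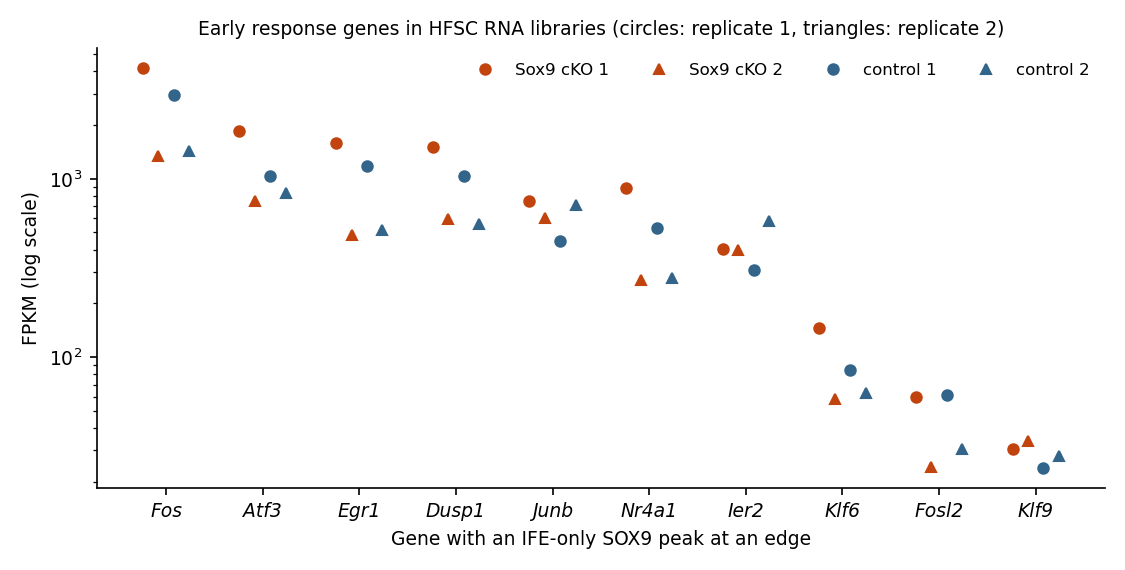
FPKM (log scale, y axis) of the 10 early response genes with an IFE-only SOX9 peak at an edge (x axis), in the HFSC libraries labelled Sox9 cKO 1 and 2 and control 1 and 2; circles are replicate 1 (males) and triangles replicate 2 (females). Fos spans 1346 to 4197 FPKM, and for 9 of the 10 genes cKO 1 lies above control 1.

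Notch genes had the next highest share, with 6 of 25 (24.0%) at an IFE-only edge, 2 at a shared IFE edge and 5 at an HFSC edge. Of the 6, 4 have a locus of their own. Where rows share a locus, as for Notch1, its edge may be that of a neighbouring gene. Hes1, the repressor that Notch signalling switches on, was the one gene with its own locus that had 3 IFE-only peaks, one over the lower edge of its locus (chr16:30064029-30064748) and 2 around the higher edge. None of them was nearer than 1330 bp to an HFSC peak. Among the others were the ligand Jag1, the receptor Notch1, the coactivator Maml3 and the repressor Hey2. Hes1 was at 96.9 FPKM in cKO 1 and 106 FPKM in cKO 2, against 48.9 FPKM in control 1 and 147 FPKM in control 2, and the groups overlap. Jag1 was at 88.8 FPKM in cKO 1 and 53.9 FPKM in cKO 2, against 69.7 FPKM in control 1 and 34.5 FPKM in control 2, also overlapping, though it was higher under the label cKO within each pair (log2 differences of 0.34 and 0.63; adjusted p = 0.324 with the replicate block, limma).

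Genes of basal epidermal adhesion had 4 of 22 (18.2%) at IFE-only edges, against 7 at shared IFE edges and 9 at HFSC edges. Among them were Itgb1, the cadherin gene Cdh1 and the laminin gene Lama3, whose products hold basal cells to each other and to the basement membrane. The peak over the Itgb1 start (chr8:131209230-131210216, 987 bp) was 185806 bp from the nearest HFSC peak, and no HFSC peak lay in the gene. Cdh1 and Lama3 each had an HFSC peak of both lists within the locus, outside the 1000 bp edges. The Lama3 locus is shared by 3 gene rows. Itgb1 was at 120 FPKM in cKO 1 and 86.2 FPKM in cKO 2, against 125 FPKM in control 1 and 71.1 FPKM in control 2.

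Epidermal transcription factors had 4 of 22 (18.2%) at IFE-only edges and 4 at shared edges. Those at IFE-only edges were Klf4 (a factor of barrier formation), Hes1, Barx2 (a homeobox factor) and Ovol1 (a zinc finger repressor). Klf4 also had a shared IFE edge peak and an HFSC edge peak of list 1. Its IFE-only peak lay 247 bp from an HFSC peak. Differentiation genes had 2 of 34 (5.88%), Krtdap and Ppl (periplakin of the cornified envelope). Ppl also had a shared IFE edge peak and an HFSC edge peak of list 1, and its IFE-only peak lay 295 bp from an HFSC peak. Krtdap was at 966 FPKM in cKO 1 and 2767 FPKM in cKO 2, against 1085 FPKM in control 1 and 4361 FPKM in control 2, with overlap, and its peak at chr7:31572591-31573033 was 6910 bp from the nearest HFSC peak. HFSC identity genes had 2 of 30 (6.67%) at IFE-only edges, Tbx1 and Alcam, against 9 at HFSC edges. Tbx1 also had an HFSC edge peak of list 1. Tbx1, a T-box factor, was at 95.6 FPKM in cKO 1 and 144 FPKM in cKO 2, against 202 FPKM in control 1 and 185 FPKM in control 2, with no overlap, and did not pass (log2 change -0.72 ± 0.18 SE, adjusted p = 0.275 with the replicate block, limma). The SOX family had 1 of 20, Sox15, at 2.65 FPKM on average.

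Signalling and cycle lists lay between these. WNT genes had 5 of 43 (11.6%), namely the receptors Fzd7 and Fzd5, the ligands Wnt4 and Wnt5b and the feedback inhibitor Axin2. Of the HFSC peaks nearest to them, that of Axin2 was 159 bp from its IFE-only peak and that of Wnt4 217 bp, while for Fzd5 it was 17868 bp away. Wnt4 had 24.4 FPKM in cKO 1 and 17.5 FPKM in cKO 2, against 16.9 FPKM in control 1 and 11.8 FPKM in control 2, and the groups do not overlap (log2 change 0.52 ± 0.14 SE, adjusted p = 0.326 with the replicate block, limma). TGF-beta, activin and BMP genes had 5 of 38 (13.2%), among them the 3 receptors Tgfbr1, Tgfbr2 and Tgfbr3, the protease Bmp1 and the signal transducer Smad3, against 2 at shared IFE edges. Cell cycle genes had 7 of 43 (16.3%), Rbl1, Cdc20, Ccna2, Ccne2, Aurka, E2f1 and Bub1, which were at low levels in HFSCs, Rbl1 with the highest mean at 5.35 FPKM. Chromatin regulators had 9 of 50, against 15 at shared IFE edges, with the insulator factor Ctcf, the polycomb genes Cbx8 and Ezh2 and the acetyltransferases Ep300 and Crebbp among the 9. Own loci were held by 3 of the 5 WNT genes and 4 of the 5 TGF-beta, activin and BMP genes. Of the cell cycle and chromatin genes, 3 of 7 and 3 of 9 held one. The remaining genes share a locus with other rows, so the edge may be that of a neighbour.

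Housekeeping lists had from 3.29% to 11.2% of their genes at IFE-only edges, against 9.29% of expressed rows. Translation factors had 7 of 72 (9.72%) at IFE-only edges, against 14 at shared IFE edges, and splicing factors 5 of 67 (7.46%), against 15. Mitochondrial ribosomal proteins had 9 of 80 (11.2%), against 6, and respiratory chain subunits 5 of 93 (5.38%), against 8. Only 5 of these 9 and 1 of these 5 have a locus of their own. Cytosolic ribosomal protein genes had 8 of 243 (3.29%), with Rpl8 at 1978 FPKM on average and Rps20 at 1334 FPKM, and the list includes processed copies such as Rpl14-ps1, between which reads may be split. Of 3504 small nuclear and nucleolar RNA rows 131 (3.74%) were at an IFE-only edge, 4 of them with their own locus, and of 531 microRNA rows 22 (4.14%), 1 of them with its own locus. The 8 most abundant gene rows beside an IFE-only peak were Fos, Krtdap, Rpl8, Rps20, Atf3, Actb, Rpl14-ps1 and Egr1. Rpl8 had 1212 FPKM in cKO 1 and 3297 FPKM in cKO 2, against 982 FPKM in control 1 and 2420 FPKM in control 2, and so was higher in replicate 2 on either side. Actb, the cytoskeletal actin, had 1394 FPKM in cKO 1 and 701 FPKM in cKO 2, against 1230 FPKM in control 1 and 989 FPKM in control 2, with overlap, and its IFE-only peak over the higher edge lay 171 bp from an HFSC peak of list 2. The proteasome had 3 of 54 (5.56%) and zinc finger genes named Zfp 18 of 376 (4.79%). Predicted genes named Gm had 249 of 9045 (2.75%), and histone genes 1 of 88 (1.14%).

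Markers of other skin cells gave 0 of 10 for Langerhans and T cells, 0 of 11 for fibroblasts, 0 of 8 for endothelium and muscle and 0 of 5 for Merkel cells. In the same order, 7, 4, 3 and 2 of these genes had a mean of at least 1 FPKM. Of all gene rows 5.18% were at an IFE-only edge, so 0 in lists this short does not set them apart from other genes. Sebocyte and infundibulum genes had 1 of 13, the fatty acid synthase Fasn with 2 peaks. Of 9 melanocyte genes 2 were at IFE-only edges, Dct and Pmel, and 0 at shared IFE or HFSC edges. Dct, an enzyme of pigment synthesis, had its peak 828 bp inside the start at chr14:118450029-118450640, and Pmel, the pigment fibril protein, had one over the higher edge of a locus that 2 gene rows share. Dct was at 1.15 FPKM in cKO 1 and 0.289 FPKM in cKO 2, against 1.22 FPKM in control 1 and 1.34 FPKM in control 2, and Pmel at 0.707 FPKM in cKO 1 and 0.661 FPKM in cKO 2, against 1.34 FPKM in control 1 and 0.408 FPKM in control 2. The groups overlap for Pmel, while both libraries labelled cKO lie below both controls for Dct, at levels near 1 FPKM or less.

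**Figure D5:**
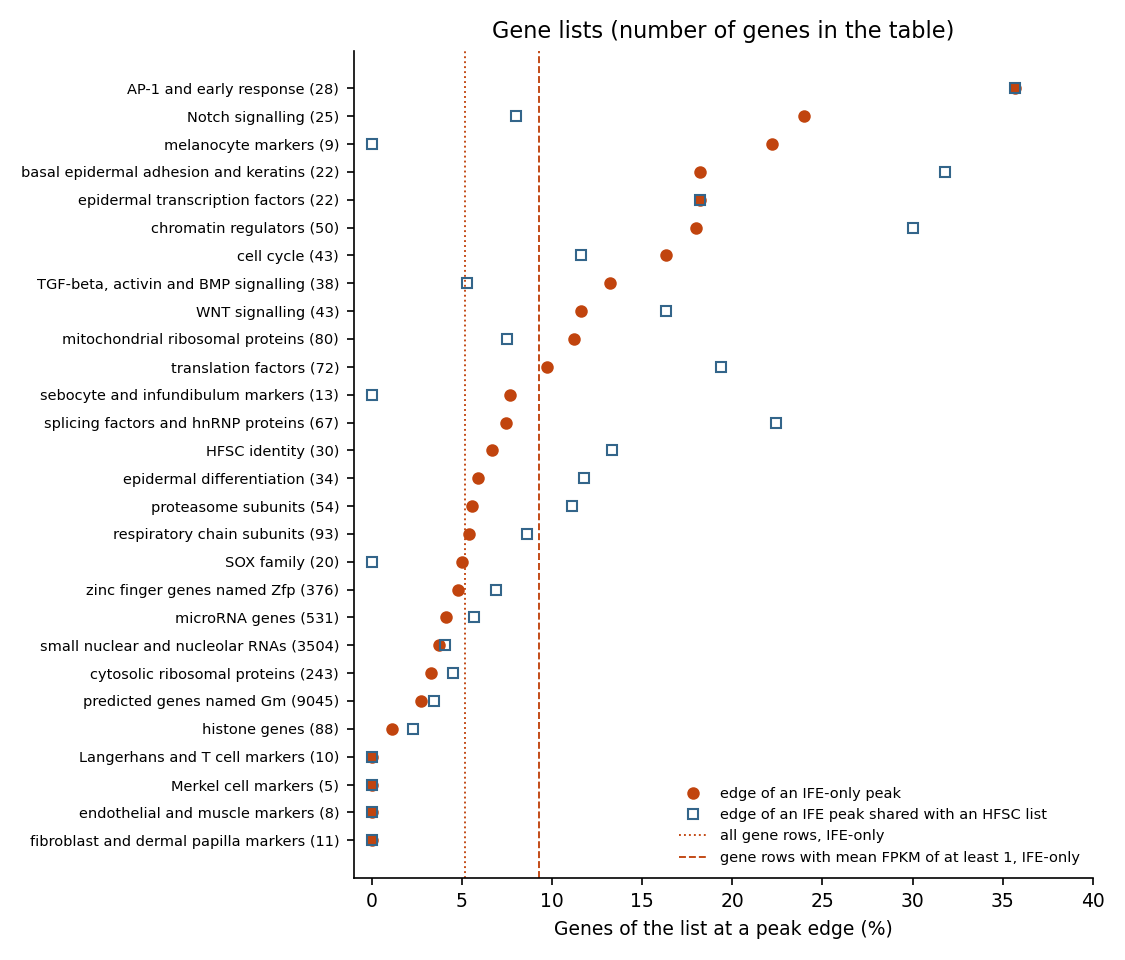
Share of the genes of each list (percent, x axis; number of genes in brackets) at an edge of an IFE-only peak (circles) and of an IFE peak shared with an HFSC list (squares); the dotted and dashed lines are the IFE-only shares of all gene rows (5.18%) and of rows with at least 1 FPKM (9.29%). Early response genes are at 35.7% and Notch genes at 24.0%, and 4 short lists of other skin cell types (5 to 11 genes each) are at 0.

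Some peaks reached more than one gene. Of the 1112 peaks 142 (12.8%, 10.9 to 14.9%) reached at least 2 distinct loci, against 233 of 1253 shared IFE edge peaks (18.6%, 16.5 to 20.9%). Among genes with their own locus and a strand, 24 peaks reached 2 starts, and in all 24 the genes stood head to head. The peak at chr4:150288403-150288853 covered the starts of Park7, an oxidative stress protein with a mean of 132 FPKM, and of Tnfrsf9, a receptor of T cells at 0.0904 FPKM, which lie 124 bp apart. That at chr14:32064265-32064904 covered the starts of Bap1 (a deubiquitinase, 20.2 FPKM) and Phf7 (3.09 FPKM), 270 bp apart. A peak at chr4:129168831-129169193 reached 3 loci, the most of any, namely those of 1700125D06Rik, Gm12979 and the testis kinase gene Tssk3, none of which exceeded 0.251 FPKM in any library. In turn, 789 of the 814 genes with their own locus had 1 IFE-only peak, 24 had 2 and 1 had 3.

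The RNA comparison asks which genes depend on SOX9 in HFSCs, and here it is read for the genes beside IFE-only peaks. With genotype alone in the model (limma on log2(FPKM + 1)), 0 of 14455 tested genes passed an adjusted p of 0.05 (0%), and 0 of the 1343 tested beside IFE-only peaks. This fit did not call large changes in simulated data either, so its lack of calls does not show that no gene changed. At an unadjusted p under 0.05 the counts were 93 genes (0.643%) and 5 of the 1343 (0.372%). With the replicate number as a block, 41 genes passed (0.284%), 15 higher (0.104%) and 26 lower (0.180%) under the label cKO, and 4 of the 1343 (0.298%) passed, all of them lower. At an unadjusted p under 0.05 the blocked counts were 1648 genes (11.4%) and 112 of the 1343 (8.34%). At the adjusted threshold with the block, the share called beside IFE-only peaks was thus near that of all genes, on 4 calls. At the unadjusted threshold it was lower than that of all genes in both fits, and this difference was not tested. The median log2 change was -0.03 beside IFE-only peaks and -0.01 over all genes tested.

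The 4 genes were Wfdc3, St6galnac2, 2310057J16Rik and Snord72, each with an adjusted p of 1.000 in the limma fit without a block. Wfdc3 was at 21.7 FPKM in cKO 1 and 31.7 FPKM in cKO 2, against 75.8 FPKM in control 1 and 93.4 FPKM in control 2, and the groups do not overlap. Its log2 change was -1.64 ± 0.13 (SE, adjusted p = 0.0144 with the replicate block, limma), and its start lay under the peak at chr2:164571305-164571806, with HFSC peaks of both lists in its locus. St6galnac2, a sialyltransferase gene, was at 3.15 FPKM in cKO 1 and 2.08 FPKM in cKO 2, against 20.1 FPKM in control 1 and 11.6 FPKM in control 2, with no overlap (log2 change -2.19 ± 0.18 SE, adjusted p = 0.0164 in the same limma fit). It shares its locus with 5 other gene rows and had an HFSC peak of list 1 at an edge. 2310057J16Rik was at 49.3 FPKM in cKO 1 and 37.8 FPKM in cKO 2, against 112 FPKM in control 1 and 72.3 FPKM in control 2 (log2 change -1.04 ± 0.13 SE, adjusted p = 0.0373 in the same limma fit). It shares its locus with other rows (3 in all) and had an HFSC peak of list 1 at an edge. Snord72, a small nucleolar RNA inside the Rpl37 locus, was listed at 0 in both libraries labelled cKO, against 4.05 FPKM in control 1 and 10.9 FPKM in control 2 (adjusted p = 0.0297 in the same limma fit). An exact 0 in FPKM may be a failed estimate for so short a transcript.

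Fzd7, a WNT receptor whose start lay under an IFE-only peak (chr1:59538700-59539428) 32457 bp from the nearest HFSC peak, missed the threshold. It was at 50.3 FPKM in cKO 1 and 32.6 FPKM in cKO 2, against 89.9 FPKM in control 1 and 57.4 FPKM in control 2, with a log2 change of -0.81 ± 0.12 (SE, adjusted p = 0.0766 with the replicate block, limma). The lowest control (57.4 FPKM) lay above the highest library labelled cKO (50.3 FPKM), so the groups do not overlap. With the block, 1 degree of freedom per gene is left for the error, the p-values speak of the 4 libraries and not of further mice, and the calls above change with the filter and the scaling. Sox9 RNA was not lower in cKO 2 than in its control (80.5 against 46.5 FPKM). In the male pair it was only slightly lower (71.3 against 82.7 FPKM). The direction in both pairs thus rests on the label.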

How the data were processed

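Peak lists and the expression table are the authors' own files. Peaks were deposited per library as coordinates without score, and neither the peak caller, its threshold nor the use of the 3 input libraries is given in the sources used here. Expression was deposited as FPKM per gene and library, per the file headers. Build mm9 and the tools Cufflinks 1.0.3, Bowtie, TopHat and TopHat2 stand in the submitters' processing notes, with no role for each. Read depth is unknown, so no count model was used and a value listed at 0 does not show absence.

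Peaks shared with an HFSC list overlapped it by at least 1 bp. Loci came from all 37298 rows of the table, of which 22844 have a locus of their own; the others share one with a neighbour. Locus starts count from 0, since lengths then equal those of RefSeq for 3527 rows, and printed starts count from 1. Neither loci nor peaks give strand or exons, and gene starts need RefSeq (GRCm38.p6), which supplied strand and promoter sequence by symbol only.

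The RNA test used limma 3.58.1 (R 4.3.3; trend, two-sided, Benjamini-Hochberg) on log2(FPKM + 1) over 14455 genes with a mean of at least 1 FPKM, and changes on this scale understate those of low genes. Both fits were tried on simulated data with pair differences as measured, a small residual spread and large planted changes only. The fit with a replicate block called the genes made to change, with some false calls, and the fit without a block did not call them. Changes as small as those of Wfdc3 and 2310057J16Rik were not simulated, so the trial does not show how either fit handles them. Same-numbered libraries share sex, age and treatment days in the labels, and their deviations from the group means had a correlation of 0.812 over genes (genes are no independent replicates), so the blocked fit is printed beside the fit without a block. The fit without a block is the main one.

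Genes were named by rule: the 8 highest in FPKM at the edges, up to 4 for each list, those called, and those at the widest, narrowest, most-gene and threshold peaks. Exceptions are the sequences of Wfdc3 and Fzd7, counts within the early response list, and further genes of a list. These were named after values were seen. The members and lists were chosen with earlier results of these data known. Alternatives covered overlap, window, loci, lists, pseudocount, filter, scaling and left-out libraries. Some members of the gene lists are not reported here.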

Additional observations from a re-analysis of the deposited data

Results flagged for a closer look

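In 7 early response genes with an IFE-only edge peak the male pair and the female pair moved in opposite directions, higher in the library labelled cKO among males and lower among females, and the difference between the pairs was not tested, since each pair is 1 library a genotype. The log2 changes in the male and female pair were 0.51 and -0.1 for Fos, 0.85 and -0.17 for Atf3, and 0.42 and -0.09 for Egr1. They were 0.75 and -0.25 for Junb, 0.75 and -0.05 for Nr4a1, 0.39 and -0.55 for Ier2, and 0.78 and -0.1 for Klf6. Sex, age and treatment days differ together between the pairs and cannot be told apart. Sox9 RNA was lower than in the control only in the male pair, and there only slightly (71.3 against 82.7 FPKM). The same direction, higher in the male and lower in the female pair, was present in 11 of the 18 early response genes with no IFE-only edge peak and in 16.4% of all 14455 tested rows.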

How the results depend on the processing

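The count of 1112 peaks stayed within 1.5 times under other overlap rules, windows and locus sets and without either HFSC list (1455 and 1456), and was 508 among IFE peaks at least as wide as the median. The edge share of 47.3% moved to 42.3% with a 500 bp window, 51.1% with 2 kb, 43.1% over loci of genes with at least 1 FPKM and 56.6% among wide peaks, and ranged from 41.9 to 51.5% without one HFSC list. The share of pairs at a gene start, 93.3%, was 90.2% with a 2 kb window. The share of edge genes at 1 FPKM, 69.5%, was 82.8% at 0.1 FPKM and 42.3% at 10 FPKM. The early response count was 8 to 13 of 28 under 6 alternatives chosen after seeing the data, with 8 when HFSC peaks were extended by 500 bp.

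Genes called numbered 0 in the fit without a block, 41 with the replicate block (4 of them at IFE-only edges), and with the block 33 (3) at a pseudocount of 0.1, 78 (7) at 5, 3 (0) after quantile normalization, and 0 without the filter or the trend. Leaving out 1 library without a block gave 2 to 41 genes, 0 to 2 of them at IFE-only edges, where the lone sample is assumed to vary like the other group. The log2 changes of the 4 called genes kept their sign in all 16 settings each, and each passed in 2 to 6 of them. The cause of these moves was not tested. Depth is unknown, and 1 IFE library leaves every peak value without a spread between libraries.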
